A study of Mus musculus with 12 samples.

Results

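γδ T cells were compared with CD4+ T cells, both from wild-type C57BL/6 mice that ate the control diet, across all genes, as 2 libraries of γδ T cells (replicates 6 and 7) against 2 libraries of CD4+ T cells (replicates 2 and 3). These 4 libraries were taken by their labels, out of 12 libraries in 6 groups of 2. Mice were 7 weeks old at the start of feeding and were fed for 6 weeks, and the cells were sorted by flow cytometry straight into lysis buffer. The other 8 libraries came from the same 2 cell types of wild-type mice fed the MCD diet (methionine- and choline-deficient, widely used to induce steatohepatitis) and from CD4+ T cells of γδTCR-/- mice, which lack the γδ receptor, on either diet. No tissue is named in the labels, and whether replicates are separate mice is not stated, so p-values measure the spread between these samples, which may be technical. The comparison asks which transcripts set the 2 kinds of T cell apart in animals on the control diet.

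T cells recognise antigen through a receptor made of 2 variable chains. CD4+ T cells pair an α with a β chain and use the co-receptor CD4 to read peptides on MHC class II molecules. γδ T cells pair a γ with a δ chain, mostly carry no CD4, and include subsets committed during development to interleukin-17 or to interferon-γ and cytotoxicity, often with receptors shared with natural killer (NK) cells. Both receptors signal through the same CD3 chains, whose cytoplasmic tails carry activation motifs (ITAMs).

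Total counts were 22930004 and 23203603 in the γδ libraries and 17988045 and 18410553 in the CD4+ libraries. Mitochondrial transcripts took 54.6% and 56.2% of counts in γδ and 42.2% and 41.1% in CD4+ libraries, which left 10153523 to 10851934 other counts per library. Genes with at least 10 counts numbered 12174 and 11903 in γδ and 13152 and 13402 in CD4+ libraries. Levels are given as CPM, counts scaled to a common library size by TMM, a method that assumes that most genes do not differ. Across the 16218 genes tested, which are not independent replicates, Pearson's r of log2(CPM + 1) between replicates was 0.855 in γδ and 0.916 in CD4+ T cells. Sums of the marker lists of macrophages, dendritic cells and sinusoidal endothelium were 8.15 to 27.5 times higher in γδ than in CD4+ libraries and stood higher in γδ replicate 7 than in replicate 6. These sums are given beside several of the results they touch.

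Between the cell types, 106 of 16218 genes (0.654%) passed an adjusted p of 0.05 by quasi-likelihood F-tests in edgeR (Benjamini-Hochberg), and these are referred to as called genes. Of them, 73 (0.45% of genes tested) were higher and 33 (0.203%) were lower in γδ T cells. The leading differences were the genes of the receptors and co-receptors themselves, the NK receptor Ncr1, the scavenger receptor Cd163l1, the regulatory T cell factor Foxp3, and markers on the lists of macrophages and dendritic cells. Fold changes are ratios of mean CPM, with 2 exceptions. Where both libraries of a group were at 0, they are lower bounds against 3 counts per library. Where the 2 libraries of a group held 1 to 3 counts in all, the fold is the ratio of summed counts over summed library sizes, with an exact 95% interval. Floors and intervals cover counting error only, since reads carried no molecular identifiers that the sources used here mention.

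**Figure D1:**
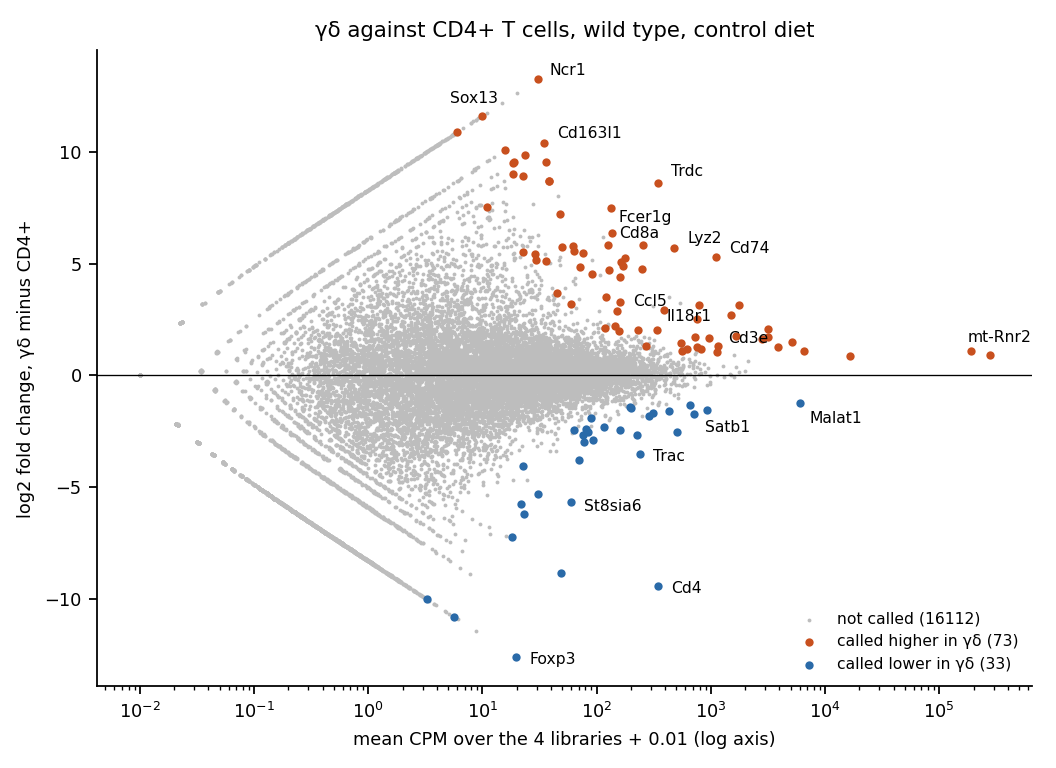
Each point is 1 of the 16218 genes tested, with the mean CPM of the 4 libraries plus 0.01 on a log axis and the log2 fold change of γδ minus CD4+ T cells on the other. The 73 called higher genes (orange) and 33 called lower genes (blue) lie mostly at the edge of a wide grey cloud of genes that were not called, with Ncr1 at 13.26 and Foxp3 at -12.61; diagonal lines of points at low CPM are genes with 0 counts in 1 group.

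All 106 called genes had groups that did not overlap, against 20.1% of tested genes that lay wholly higher and 25.8% that lay wholly lower in γδ libraries. At an unadjusted p of 0.05, 1770 genes passed, 876 higher (5.4%) and 894 lower (5.51%). Leaving out γδ replicate 6 or 7 gave 57 or 32 calls, leaving out CD4+ replicate 2 or 3 gave 27 each, and leaving out γδ MCD replicate 2 or 4, which enter only the shared estimate of spread, gave 305 each. Across all 12 such fits 20 genes kept their call: Trdc, Ccl5, Il18r1, Il1rn, Zeb2, Ahnak, Cd74, Csf1r, Cybb, Lars2, mt-Nd2, mt-Rnr1 and mt-Rnr2 among the higher and Cd4, Trac, St8sia6, Als2cl, Neb, Malat1 and the unnamed transcript Gm14085 among the lower. With library sizes alone as the scaling, the median log2 fold change of all genes moved from -0.06 to -0.64 and the split became 41 higher and 72 lower.

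The receptor genes followed the labels. Trdc, the δ constant gene (chr14:54142851-54148868, + strand, GRCm38), read 733 and 647 CPM in γδ against 0.828 and 2.69 CPM in CD4+ libraries. Its mean was 689.8 ± 60.5 CPM against 1.76 ± 1.32 CPM (SD, n = 2 each), 392-fold higher in γδ T cells (log2 fold change 8.61 ± 1.10, SE; edgeR adjusted p = 0.00195). Exons of Trdc overlap those of Trdv5 on the opposite strand, and the strand setting of the counting is not given in the sources used here, so reads of the pair cannot be told apart. Cd4, the co-receptor for MHC class II (chr6:124864692-124888221, minus strand), showed the reverse with 1.02 and 0.975 CPM in γδ against 632 and 749.8 CPM in CD4+ libraries, 694-fold lower in γδ T cells (log2 fold change -9.43 ± 0.56, SE; edgeR adjusted p = 3.33e-06). No γδ library came near any CD4+ library for either gene. In a sorted population, fewer cells of a kind and less RNA per cell cannot be told apart from such levels.

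Trac, the α constant gene, read 36.4 and 40 CPM in γδ against 444 and 434 CPM in CD4+ libraries and was 11.5-fold lower in γδ T cells (edgeR adjusted p = 0.00119). The β constant genes did not separate in the same way. Trbc1 read 62 and 93.5 against 170.0 and 156 CPM and Trbc2 163 and 125 against 189 and 170.2 CPM, with edgeR adjusted p values of 0.337 and 0.907. β-chain transcripts were thus present in the γδ libraries at levels that this test did not set apart from those in CD4+ T cells. The groups did not overlap for any of the 3 genes.

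Among the γ constant genes, Tcrg-C4 read 734 and 635 CPM in γδ against 79.6 and 103 CPM in CD4+ libraries, 7.49-fold higher (log2 fold change 2.90 ± 0.50, SE; edgeR adjusted p = 0.0146). Tcrg-C1 read 938 and 659 against 62.1 and 78.8 CPM and Tcrg-C2 823 and 1121 against 84.3 and 122 CPM, 11.3-fold and 9.4-fold apart, and missed the threshold (edgeR adjusted p = 0.184 and 0.0637). Tcrg-C3 read 12.5 and 26.3 against 0.184 and 0 CPM and was not called (edgeR adjusted p = 0.246). Some of the γ constant genes are close copies of each other, so the split of reads between those is uncertain. The sum over all of the γ constant genes is given too. Summed over 4 genes, γ constant counts were 49292 and 45072 in γδ and 4916 and 7021 in CD4+ libraries. CD4+ libraries of γδTCR-/- mice on the control diet held 263 and 383. The wild-type CD4+ libraries therefore contained γ constant transcripts at levels between those of γδ T cells and of CD4+ T cells from animals without the γδ receptor. Tcrg-C4 lost its call without any 1 of the 4 libraries compared (edgeR adjusted p up to 0.224).

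**Figure D2:**
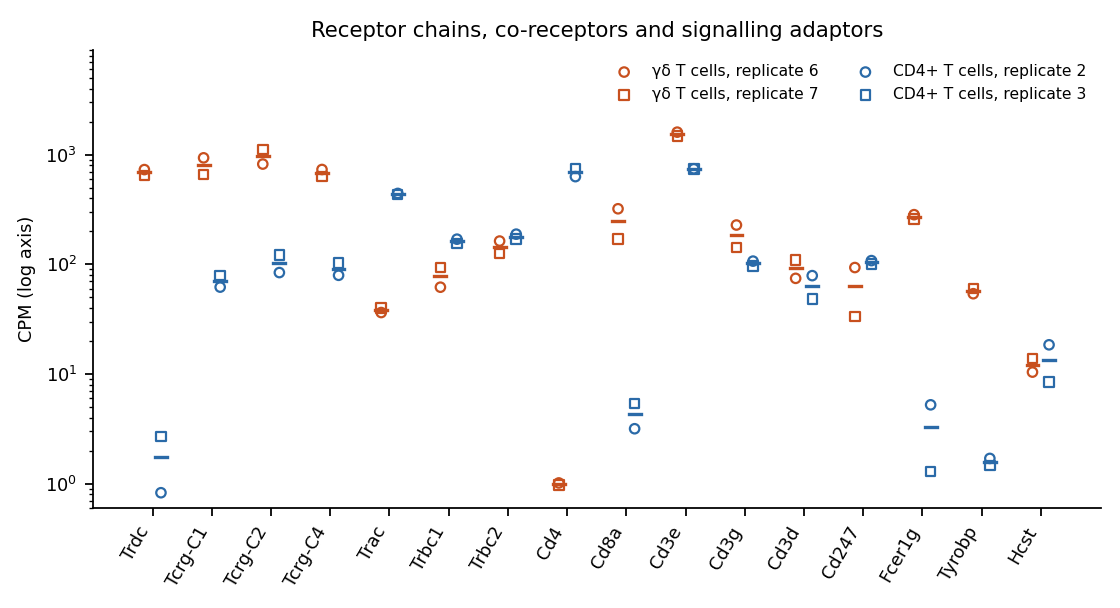
CPM on a log axis of receptor constant genes, co-receptors, CD3 chains and adaptors in the 2 γδ libraries (orange) and the 2 CD4+ libraries (blue), with a bar at each group's mean. Trdc, Cd8a, Fcer1g and Tyrobp stand apart in γδ T cells and Cd4 and Trac in CD4+ T cells, while Cd3d and Hcst have overlapping groups.

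No variable, diversity or joining segment was called by edgeR. At an unadjusted p of 0.05, 8 of 23 tested γδ segments were higher and 3 lower, and 1 of 131 αβ segments was higher and 50 lower. DESeq2 called 7 and 2 of the γδ and 0 and 32 of the αβ segments. The 23 include variable segments that the α and δ chains share, named Trav with a dv suffix. All 5 of the 23 with a negative log2 fold change were such shared segments, and each segment named for γ or δ alone was above 0. Over all genes the unadjusted shares were 5.4% higher and 5.51% lower, and DESeq2 called 3.88% higher and 3.91% lower of the 14341 genes to which it gave an adjusted p. Counts on the 6 γ variable genes summed to 2179 and 2768 in γδ and 159 and 407 in CD4+ libraries. Trgv2 took 55.6% and 53.0% of them in γδ replicates 6 and 7 (95% Wilson intervals 53.5% to 57.7% and 51.1% to 54.9%), and Tcrg-V4 27.0% and 31.9% (25.2% to 28.9% and 30.2% to 33.6%). Among these 6 genes, both γδ libraries thus drew most counts from the same pair. The 6 were Tcrg-V3 to Tcrg-V7 and Trgv2, so the shares leave out Tcrg-V1. Tcrg-V7 took 5.0% and 11.7%, and Tcrg-V6 5.8% and 1.6%.

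The δ variable genes were less alike between the replicates. Counts on the 6 genes named Trdv only summed to 1137 and 411 in γδ and to 22 and 8 in CD4+ libraries. Trdv4 took 56.0% (53.1% to 58.9%) in replicate 6 and 18.2% (14.8% to 22.3%) in replicate 7, while Trdv1 took 2.6% (1.9% to 3.7%) and 40.1% (35.5% to 45.0%). Trdv5 took 23.7% and 21.9% and Trdv2-2 17.5% and 19.7%. The leading δ gene therefore differed between the 2 γδ libraries by more than counting error. Segment names are those of the deposited table, and segments were counted as genes, so rearranged reads that span a junction may be missing from these sums.

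In the α and β repertoires the opposite held, in sums that were not tested. Counts on α variable genes summed to 118 and 61 in γδ and 1253 and 1151 in CD4+ libraries, and counts on α joining genes to 309 and 245 against 2765 and 2996. Reads fell on 8 and 3 of 118 α variable genes in γδ libraries and on 47 and 50 in CD4+ libraries. β variable genes summed to 643 and 468 against 1504 and 1017 counts, a smaller separation than that of the α genes. Of the 131 αβ segments tested, 114 had a negative log2 fold change and the groups of 87 lay apart with γδ lower (25.8% of all tested genes did so).

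Cd3e, an invariant chain of the receptor complex, was higher in γδ T cells. It read 1608 and 1488 CPM in γδ against 746 and 741 CPM in CD4+ libraries, 2.08-fold (log2 fold change 1.06 ± 0.20, SE; edgeR adjusted p = 0.0253). Cd3g read 229 and 142 against 107 and 97.2 CPM, Cd3d 74.7 and 109.6 against 79.1 and 48.4 CPM and Cd247, the ζ chain, 93.7 and 33.6 against 108 and 101 CPM, and none of these was called (edgeR adjusted p = 0.502, 0.736 and 0.544). The 2 adaptors that carry ITAMs outside the CD3 complex separated more widely. Fcer1g, the common γ chain of Fc receptors, which can replace the ζ chain in some T cell receptors, read 284 and 259 CPM in γδ against 5.25 and 1.3 CPM in CD4+ libraries, 83-fold higher (edgeR adjusted p = 0.0112). Tyrobp (DAP12), the adaptor of activating NK and myeloid receptors, read 54.1 and 60.2 CPM in γδ against 1.7 and 1.47 CPM in CD4+ libraries, 36-fold higher (edgeR adjusted p = 0.0234). Hcst (DAP10), the adaptor of the receptor NKG2D, read 10.4 and 13.9 against 18.5 and 8.45 CPM with overlapping groups. Of 7 genes in this list 3 were called higher and 0 lower, against 0.45% and 0.203% of all tested genes. The list median was 0.86 in log2 fold change where the median gene had -0.06. Fcer1g and Tyrobp are also abundant in macrophages, whose listed markers summed to 1256 and 2392 CPM in γδ and 76.5 and 56.1 CPM in CD4+ libraries. Those marker sums were higher in γδ replicate 7 than in replicate 6. The part of macrophage RNA in either result was not tested. Cd3e and Tyrobp lost their call without any 1 of the 4 libraries compared, and Fcer1g without CD4+ replicate 2 or 3 or γδ replicate 7 (edgeR adjusted p up to 0.306, 0.384 and 0.145).

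The start regions of 3 called higher genes are printed to show the regulatory sequence next to the counts: Fcer1g, for the adaptors, and Sox13 and Cd163l1, for the lineage factor and the interleukin-17 genes described further on. Each runs from 250 bases before to 50 bases after the RefSeq start (GRCm38.p6), 5′ to 3′ on the strand of the gene, with matches to any of 4 searched motifs in capitals. The motifs were the PU box GAGGAA, the RUNX core TGTGGT, the SOX core ACAATG and the E-box CACCTG, on both strands.
Fcer1g (chr1:171234300-171234599, minus strand): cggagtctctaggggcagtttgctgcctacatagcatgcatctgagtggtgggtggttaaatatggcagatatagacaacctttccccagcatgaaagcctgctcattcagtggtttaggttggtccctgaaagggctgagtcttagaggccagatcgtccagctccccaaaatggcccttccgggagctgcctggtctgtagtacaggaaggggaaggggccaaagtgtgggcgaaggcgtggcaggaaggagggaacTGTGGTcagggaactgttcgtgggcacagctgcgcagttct
Sox13 (chr1:133424163-133424462, minus strand): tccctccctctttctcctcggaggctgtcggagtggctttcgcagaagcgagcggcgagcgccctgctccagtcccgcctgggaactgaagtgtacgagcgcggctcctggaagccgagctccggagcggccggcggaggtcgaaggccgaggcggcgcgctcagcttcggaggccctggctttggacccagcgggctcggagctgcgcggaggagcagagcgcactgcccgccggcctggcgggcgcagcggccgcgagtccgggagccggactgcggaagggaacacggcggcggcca
Cd163l1 (chr7:140218017-140218316, plus strand): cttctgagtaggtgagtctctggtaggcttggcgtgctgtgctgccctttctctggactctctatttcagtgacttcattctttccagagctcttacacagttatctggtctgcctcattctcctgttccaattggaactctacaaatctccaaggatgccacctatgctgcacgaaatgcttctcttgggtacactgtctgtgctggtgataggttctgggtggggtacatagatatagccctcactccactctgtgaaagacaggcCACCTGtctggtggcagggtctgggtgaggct
Fcer1g held 1 RUNX core at position 260 of the window and Cd163l1 1 E-box at position 269, and the window of Sox13 held 0 matches to the 4 motifs. The RUNX core occurred in 16.8% and the E-box in 20.2% of all 32851 windows, the PU box in 28.3% and the SOX core in 12.6%. Only 40 of the 73 higher and 25 of the 33 lower genes had a window in the table, so no share over the called genes is given. A match is a run of letters and not a site of binding.

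Cd8a, the α chain of the CD8 co-receptor, read 322 and 171 CPM in γδ against 3.18 and 5.42 CPM in CD4+ libraries, 57.4-fold higher in γδ T cells (log2 fold change 5.84 ± 1.10, SE; edgeR adjusted p = 0.0253). Cd8b1, which pairs with it on conventional CD8 T cells, read 4.78 and 18.9 against 1.43 and 2.12 CPM and was not called. The list of CD8 T cell markers, which holds both genes, summed to 509 and 352 CPM in γδ and 53.4 and 60.2 CPM in CD4+ libraries. Its 7 genes were all above 0 in log2 fold change, the groups of 6 lay apart with γδ higher (20.1% of all tested genes did so), and the median was 2.73. Cd8a was the 1 called (0.45% of all tested genes were called higher), and the part of CD8 T cells in its difference was not tested. Per length, on the authors' FPKM scale, the mean level of Cd8a was 63.4 in γδ and 1.12 in CD4+ T cells. Among 30 co-receptor and proximal signalling genes, Cd8a was the 1 called higher and Cd4 the 1 called lower (0.45% and 0.203% of all tested genes were). Ptprc, the leukocyte phosphatase CD45, read 1598 and 1542 against 1571 and 1729 CPM and Rasgrp1, an activator of Ras, 579 and 576 against 538 and 570.5 CPM, with edgeR adjusted p values of 0.932 and 0.967. Cd8a lost its call without any 1 of the 4 libraries compared (edgeR adjusted p up to 0.346).

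Of 24 lineage transcription factors of γδ and innate-like T cells, 3 were called higher and 0 lower, against 0.45% and 0.203% of all tested genes. The list median was 0.82. It was 0.24 with library sizes alone as the scaling, and 0.48 to 0.92 when 1 of the 4 libraries compared was left out. Sox13, a factor of the interleukin-17 γδ lineage, had 461 and 294 counts in γδ and 0 in both CD4+ libraries (23.5 and 15.9 CPM against 0), at least 147-fold higher (edgeR adjusted p = 0.0363). Zeb2, a repressor found in terminal effector and myeloid cells, read 224 and 273 CPM in γδ against 5.38 and 13.7 CPM in CD4+ libraries, 26-fold higher (edgeR adjusted p = 0.00119). Macrophage markers summed to 1256 and 2392 CPM in γδ and 76.5 and 56.1 CPM in CD4+ libraries. The part of macrophage RNA in the Zeb2 result was not tested. Ikzf3 (Aiolos) read 1558 and 1777 CPM in γδ against 578 and 751 CPM in CD4+ libraries, 2.51-fold higher (edgeR adjusted p = 0.0137). All 3 separated the groups without overlap. Maf read 177 and 146 against 77.8 and 78.2 CPM and Rora 241 and 285 against 149.9 and 168 CPM, and neither was called. Zbtb16 (PLZF), the factor of innate-like T cells, was looked at after its values were seen and read 57.9 and 11.5 against 36.1 and 35 CPM, with overlapping groups. Ikzf3 lost its call without any 1 of the 4 libraries compared and Sox13 without any of these or wild-type CD4+ MCD replicate 1 (edgeR adjusted p up to 0.237 and 0.364).

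The interleukin-17 list held 20 genes, of which 17 were tested, 3 were called higher and 0 lower (0.45% and 0.203% of all tested genes were). Its median log2 fold change was 3.93, and the groups of 13 genes lay apart with γδ higher (20.1% of all tested genes did so). The median was 1.97 with limma on log2(FPKM + 1), and 2.85 to 4.87 when 1 of the 4 libraries compared was left out. Cd163l1 (SCART1), a scavenger receptor of interleukin-17 γδ T cells, had 1857 and 790 counts in γδ and 0 and 2 in CD4+ libraries. Those counts were 94.5 and 42.8 against 0 and 0.0867 CPM, 1555-fold (95% counting interval 430.1 to 12848) higher. The fitted log2 fold change was 10.40 ± 1.53 (SE; edgeR adjusted p = 0.00547). Il18r1, a chain of the interleukin-18 receptor, read 594 and 503 CPM in γδ against 135 and 134 CPM in CD4+ libraries, 4.08-fold higher (edgeR adjusted p = 0.00167), and Sox13 is given above. Further genes of the list were not called, and these were picked after their values were seen. Il23r, the interleukin-23 receptor, read 25.3 and 25.7 against 0.046 and 0.867 CPM. Blk, a kinase of this γδ subset, read 27.9 and 15.9 against 0 and 0.0434 CPM, and the related scavenger receptor 5830411N06Rik (SCART2) 18.8 and 53.4 against 0.046 and 0.0434 CPM. The groups did not overlap for these 3 genes (edgeR adjusted p = 0.194, 0.186 and 0.0516). Il17a itself was nearly silent, at 0.916 and 3.47 CPM in γδ and 0 in both CD4+ libraries, and Il17f had 0 counts in all 4, which is under a limit of 3 counts per library or 0.13 to 0.162 CPM. Cd163l1 lost its call without CD4+ replicate 2 or 3 (edgeR adjusted p up to 0.0899).

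**Figure D3:**
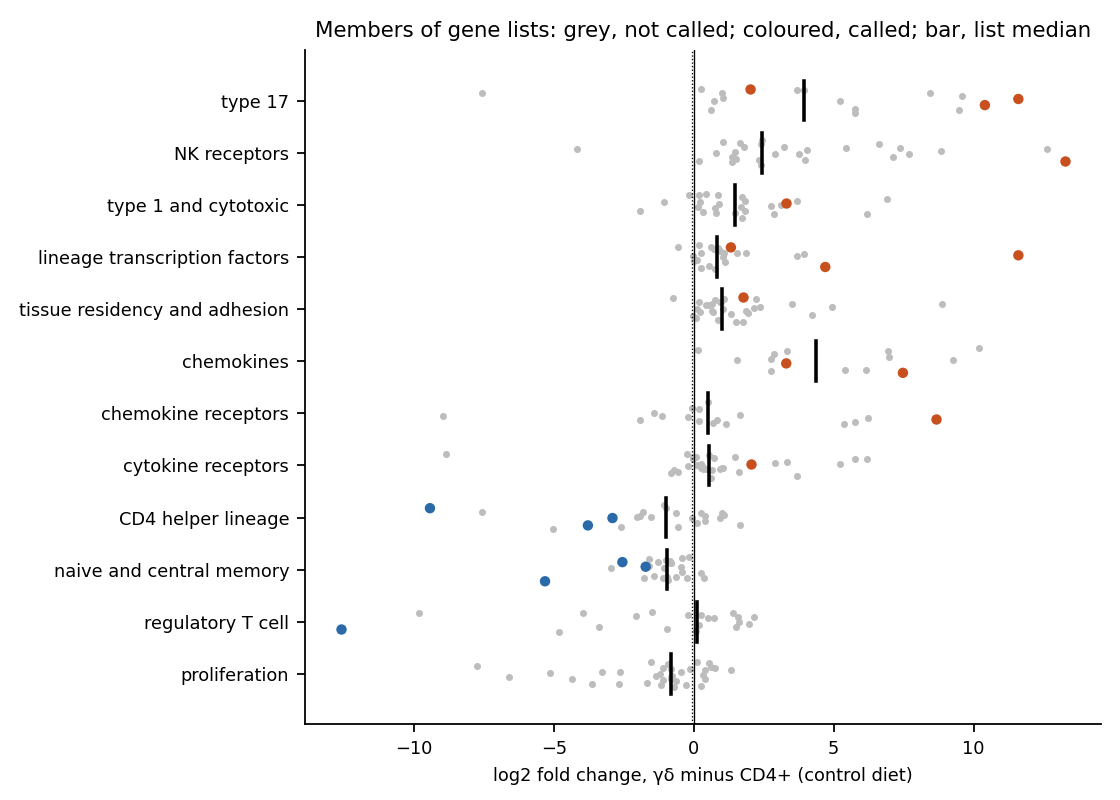
Log2 fold change of γδ minus CD4+ T cells for each tested member of 12 gene lists, with called genes coloured, other genes in grey, a black bar at each list's median and a dotted line at the median of all genes. Medians of the interleukin-17 (3.93) and NK receptor (2.44) lists lie to the right and that of the naive list (-0.95) to the left, while 1 to 3 members of each of these were called.

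NK receptors leaned the same way, with a list median of 2.44 over 27 tested genes and 21 genes whose groups lay apart with γδ higher (20.1% of all tested genes did so). At an unadjusted p of 0.05 edgeR had 11 higher and 0 lower (5.4% and 5.51% of all tested genes). DESeq2 called 10 higher and 0 lower, against 3.88% and 3.91% over all genes. edgeR called 1 higher, against 0.45% of all tested genes. Ncr1 (NKp46), a natural cytotoxicity receptor, was the 1 called gene, with 1275 and 1090 counts in γδ and 0 in both CD4+ libraries. That is 64.9 and 59 CPM, at least 462-fold higher (log2 fold change 13.26 ± 2.21, SE; edgeR adjusted p = 0.0182). Klrk1 (NKG2D) read 247 and 175 against 31.6 and 53.1 CPM, Cd160 157 and 205 against 43.1 and 25.9 CPM and Slamf7 378 and 502 against 124 and 156 CPM. Klrb1c (NK1.1) read 188 and 163 against 61.7 and 64.8 CPM. Their groups did not overlap, and none was called (edgeR adjusted p = 0.163, 0.215, 0.131 and 0.628). The marker list of NK cells, which holds Ncr1 and Klrb1c too, summed to 661 and 606 CPM in γδ and 107 and 128 CPM in CD4+ libraries, and Eomes, a factor of NK cells, read 19 and 10.5 against 0 and 2.25 CPM. The part of NK cells in these values was not tested. Members of the Klra family are close copies of each other and are not described singly. Ncr1 lost its call without any 1 of the 4 libraries compared (edgeR adjusted p up to 0.209).

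Cytotoxic and type 1 genes had a list median of 1.46 over 25 tested genes. Of these, 1 was called higher and 0 lower (0.45% and 0.203% of all tested genes were). Ccl5 (RANTES), a chemokine stored in effector cells, read 327 and 256 CPM in γδ against 27.6 and 31.4 CPM in CD4+ libraries, 9.89-fold higher (log2 fold change 3.31 ± 0.36, SE; edgeR adjusted p = 0.00114). Gzmb, a granule protease, read 653 and 464 against 85.1 and 43.4 CPM, and Gzma 223 and 226 against 0.644 and 5.55 CPM, 8.69-fold and 72.5-fold apart but not called (edgeR adjusted p = 0.128 and 0.124). Nkg7, a granule membrane protein, read 158 and 114 against 43.9 and 39 CPM. Ifng, the type 1 cytokine, read 12.8 and 6.44 against 55.2 and 18 CPM in the other direction and was not called (edgeR adjusted p = 0.43). The groups of Gzmb, Gzma and Nkg7 did not overlap, and none passed the threshold.

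Called genes of the naive and helper lists were lower in γδ than in CD4+ T cells. The naive and central memory list had a median of -0.95, with 3 of 25 genes called lower in γδ and 0 higher. Over all tested genes 0.203% were called lower and 0.45% higher. In this list the groups of 20 genes lay apart with γδ lower (25.8% of all tested genes did so). Satb1, a chromatin organiser of T cells, read 349.8 and 319 CPM in γδ against 1073 and 1130.2 CPM in CD4+ libraries, 3.29-fold lower in γδ T cells (edgeR adjusted p = 0.00333). Dgka, a kinase that ends diacylglycerol signalling, read 103 and 195 CPM in γδ against 827 and 919 CPM in CD4+ libraries, 5.86-fold lower (edgeR adjusted p = 0.00744). Als2cl, a relative of the guanine exchange factor alsin, read 0.916 and 2.11 CPM in γδ against 72.8 and 48.2 CPM in CD4+ libraries, 40-fold lower (edgeR adjusted p = 0.00333). Exons of Dgka overlap those of Pmel on the opposite strand. Ccr7, a lymph node homing receptor, and Lef1, a transcription factor of naive T cells, were looked at after their values were seen. They read 33.4 and 35.3 against 91.5 and 93.2 CPM and 120.4 and 151 against 265 and 303 CPM, without overlap and not called (edgeR adjusted p = 0.473 and 0.388). Satb1 lost its call without γδ replicate 7 and Dgka without CD4+ replicate 3 or γδ replicate 6 (edgeR adjusted p up to 0.0517 and 0.0898).

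Of 23 CD4 helper genes 3 (Cd4, St8sia1 and Slamf6) were called lower in γδ and 0 higher, against 0.203% and 0.45% of all tested genes. In this list the groups of 14 genes lay apart with γδ lower (25.8% of all tested genes did so). St8sia1, a sialyltransferase of ganglioside synthesis, read 16.8 and 2.22 CPM in γδ against 118 and 144 CPM in CD4+ libraries, 13.8-fold lower (edgeR adjusted p = 0.0363). Slamf6 (Ly108), a receptor of helper and stem-like T cells, read 12.6 and 31.6 CPM in γδ against 149.5 and 182 CPM in CD4+ libraries, 7.49-fold lower (edgeR adjusted p = 0.013). The costimulatory receptors Cd28, at 131 and 87.4 against 348 and 426 CPM, and Icos, at 112 and 43.7 against 135 and 189.8 CPM, were not called. Slamf6 lost its call without CD4+ replicate 2 or 3 or γδ replicate 6, and St8sia1 without 8 of the 12 libraries, among them CD4+ replicates 2 and 3 and γδ replicate 7 (edgeR adjusted p up to 0.109 and 0.183).

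Foxp3, the lineage factor of regulatory T cells (chrX:7573644-7595245, + strand), had 0 counts in both γδ libraries and 934 and 837 in CD4+ libraries (43 and 36.3 CPM). It was at least 252-fold lower in γδ T cells (log2 fold change -12.61 ± 1.84, SE; edgeR adjusted p = 0.00744). The CD4+ libraries thus held Foxp3 transcript and the γδ libraries none above 3 counts. Exons of Foxp3 overlap those of Ccdc22, Flicr and Ppp1r3f, which limits the assignment of reads. No other gene of the 20 in the regulatory list was called (0.203% of all tested genes were called lower), and the list's median was 0.13. Ctla4, an inhibitory receptor of these cells, read 15 and 0.217 against 60.3 and 100.3 CPM, and Il2ra (CD25) 108 and 214 against 114 and 83.6 CPM, on opposite sides and not called. Without γδ replicate 6 or 7 Foxp3 lost its call (edgeR adjusted p up to 0.0877). The list's median turned to -0.42 with library sizes alone as the scaling, and to -0.47, -0.22 and -0.14 without γδ replicate 6, γδ replicate 7 and CD4+ replicate 3.

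Further genes were among the 14 called lower with the largest change. St8sia6, a sialyltransferase, read 3.36 and 1.25 CPM in γδ against 95.6 and 139 CPM in CD4+ libraries, 51-fold lower in γδ T cells (log2 fold change -5.67 ± 0.63, SE; edgeR adjusted p = 0.00114). Trub1, a pseudouridine synthase, read 0.305 and 0.162 against 43.3 and 28.4 CPM, 153-fold lower, and Eif4a2, a translation factor, 92.1 and 31 against 358 and 419.7 CPM, 6.32-fold lower (edgeR adjusted p = 0.0161 and 0.0146). Neb and Ttn, the giant muscle proteins nebulin and titin, read 0.0509 and 1.19 against 43.4 and 47 CPM and 3.15 and 2.06 against 55.1 and 30.7 CPM, 72.8-fold and 16.5-fold lower (edgeR adjusted p = 0.00744 and 0.0225). On the FPKM scale, per length, their mean levels in CD4+ T cells were 1.61 and 0.345. Dnah8, an axonemal dynein, read 13.4 and 27.4 against 141 and 122 CPM, and Gramd1a, a sterol carrier, 24.9 and 15.3 against 75.3 and 139.9 CPM (edgeR adjusted p = 0.00906 and 0.0405). Each of these 7 genes had its γδ libraries below its CD4+ libraries. Trub1 and Ttn lost their call without any 1 of the 4 libraries compared, Eif4a2 without CD4+ replicate 2 or 3 or γδ replicate 7, Dnah8 without CD4+ replicate 2 or 3 or γδ replicate 6, and Gramd1a without 10 of the 12 libraries.

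Chemokine genes had the highest median of the T cell lists in the plot of list members, 4.38 over 14 tested genes. It was 4.09 with groups at 0 set at the floor and 2.09 with limma on log2(FPKM + 1). With log2(FPKM + 0.1) it was 3.02 and without γδ replicate 7 it was 2.96, below the interleukin-17 list in both (3.96 and 4.5). Of the 14 genes, 2 were called higher (0.45% of all tested genes were). Ccl5 is given above. Cxcl9, an interferon-γ-induced chemokine made mainly by myeloid cells, read 172 and 361 CPM in γδ against 1.29 and 1.69 CPM in CD4+ libraries, 179-fold higher (edgeR adjusted p = 0.048). Cxcl10 read 37 and 148 against 8.74 and 18.4 CPM and Xcl1, a chemokine of NK and CD8 T cells, 101 and 111 against 18.4 and 10.9 CPM, and neither was called. Among 17 chemokine receptors Cx3cr1, the fractalkine receptor, was the 1 called gene (0.45% of all tested genes were called higher). It read 97.8 and 55.9 CPM in γδ against 0.368 and 0 CPM in CD4+ libraries, 418-fold higher (edgeR adjusted p = 0.0154). Macrophage markers summed to 1256 and 2392 CPM in γδ and 76.5 and 56.1 CPM in CD4+ libraries. The part of macrophage RNA in the Cxcl9 and Cx3cr1 results was not tested. Ccr2 and Cxcr6, receptors of effector and tissue T cells, read 245 and 397 against 85.9 and 117 CPM and 165 and 201 against 118 and 109 CPM and were not called. Cx3cr1 lost its call without CD4+ replicate 3 or either γδ library, and Cxcl9 without 7 libraries, among them all 4 compared (edgeR adjusted p up to 0.124 and 0.443).

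Receptors for cytokines, members of the TNF receptor family and cytokine genes each gave 1 call, higher in γδ T cells. Over all tested genes 0.45% were called higher. Il18r1 was 1 of 31 tested cytokine receptors. Il2rb, the receptor chain shared by interleukin-2 and interleukin-15, read 1099.7 and 881 against 433 and 534 CPM, and Il7r 496 and 601 against 413 and 508 CPM, and neither was called (edgeR adjusted p = 0.185 and 0.751). Tnfrsf1b (TNF receptor 2) read 253 and 245 CPM in γδ against 66.4 and 60.2 CPM in CD4+ libraries, 3.93-fold higher (log2 fold change 1.98 ± 0.31, SE; edgeR adjusted p = 0.00956). Among 24 tested cytokine genes, Il1rn, the interleukin-1 receptor antagonist, was the 1 called, with 48 and 106 CPM in γδ against 0.138 and 0.217 CPM in CD4+ libraries, 434-fold higher (edgeR adjusted p = 0.00119). Macrophage markers summed to 1256 and 2392 CPM in γδ and 76.5 and 56.1 CPM in CD4+ libraries, and their part in the Il1rn result was not tested. Tnfrsf1b lost its call without any 1 of the 4 libraries compared (edgeR adjusted p up to 0.205).

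Residency and adhesion genes had a median of 1.01 over 30 genes, with 28 above 0, 19 whose groups lay apart with γδ higher and 1 called higher. Those compare with 20.1% and 0.45% of all tested genes, and the median was 0.45 with library sizes alone as the scaling. Ahnak, a large scaffold protein of calcium signalling, read 2857 and 2294 CPM in γδ against 823 and 684 CPM in CD4+ libraries, 3.42-fold higher (log2 fold change 1.77 ± 0.21, SE; edgeR adjusted p = 0.00144). Cd44, an activation and memory marker, read 339.6 and 553 against 191 and 163 CPM and the integrin Itga4 755 and 1029 against 525 and 624 CPM, without overlap and not called. Cd69, a marker of residency and recent activation, read 126 and 76.3 against 214 and 125 CPM with overlapping groups. No gene was called in the lists of checkpoint receptors (16 genes), immediate early genes (28 tested), proliferation (34), glycolysis (21), sterol and lipid handling (30), antioxidant genes (23 tested) or interferon-induced genes (33) by edgeR. At an unadjusted p of 0.05 these lists held 4, 4, 0, 1, 3, 6 and 1 higher and 2, 1, 2, 0, 1, 1 and 1 lower genes in that order, and DESeq2 called 1, 2, 0, 0, 2, 4 and 0 higher and 1, 0, 1, 0, 0, 1 and 0 lower. Over all genes the unadjusted shares were 5.4% higher and 5.51% lower, and the DESeq2 shares 3.88% higher and 3.91% lower. Of the proliferation genes, Mki67 read 142 and 157 against 153 and 208 CPM and Top2a 30 and 87 against 80.3 and 101 CPM, with edgeR adjusted p values of 0.849 and 0.707.

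Markers of other cells were higher in the γδ libraries for several lists. Macrophage and Kupffer cell markers summed to 1256 and 2392 CPM in γδ and 76.5 and 56.1 CPM in CD4+ libraries. All 17 tested genes were above 0 in log2 fold change, and the groups of 14 lay apart with γδ higher (20.1% of all tested genes did so). Of the 17, 3 were called higher, against 0.45% of all tested genes. The called genes were Csf1r (138 and 212 against 11 and 3.95 CPM, 23.4-fold higher), the receptor of the macrophage growth factor, Lyz2 (616 and 1252 against 14.8 and 20.6 CPM, 52.7-fold higher), a lysozyme, and Mpeg1 (257 and 429 against 12.5 and 5.68 CPM, 37.7-fold higher), a perforin-like protein. Clec4f, Timd4 and Marco, 3 Kupffer cell genes of this list, were picked after their values were seen. In γδ libraries Clec4f read 7.88 and 2.44 CPM, Timd4 0.203 and 2.44 CPM and Marco 0.153 and 0 CPM. Other Kupffer cell genes of the list are not shown. These 3 do not stand for the list, whose summed CPM was 27.5 times higher in γδ than in CD4+ libraries. The edgeR adjusted p was 0.00171 for Csf1r, 0.00333 for Lyz2 and 0.0089 for Mpeg1.

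Antigen presentation genes were the most abundant of these. Dendritic cell markers, which include MHC class II genes, summed to 2250.0 and 4412 CPM in γδ and 176 and 181 CPM in CD4+ libraries. Of 14 tested, 3 were called higher, against 0.45% of all tested genes. Cd74, the class II invariant chain, read 1331 and 2993 CPM in γδ against 49.8 and 61.1 CPM in CD4+ libraries, 39-fold higher (log2 fold change 5.28 ± 0.39, SE; edgeR adjusted p = 2.77e-05). H2-Ab1 and H2-Aa, the class II β and α chains, read 424 and 587 against 10.2 and 7.46 CPM and 198 and 418 against 20.2 and 9.28 CPM (edgeR adjusted p = 0.00217 and 0.0136). The dendritic cell genes Flt3, Xcr1 and Siglech read 0.0509 and 0, 2.39 and 8.56 and 0.0509 and 0.0542 CPM in γδ libraries. Flt3 and Siglech were thus at or near 0 and Xcr1 was not, and 10 of the 14 tested genes of the list were above 0 in log2 fold change.

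Endothelial markers of the liver sinusoid summed to 926 and 1846 CPM in γδ and 183 and 157 CPM in CD4+ libraries, and the groups of 16 of 17 tested genes lay apart with γδ higher (20.1% of all tested genes did so). Dnase1l3, a secreted nuclease, was the 1 called, where 0.45% of all tested genes were called higher. It read 299 and 661 against 14.6 and 21.3 CPM, 26.7-fold higher (edgeR adjusted p = 0.00956). Sums of macrophage, dendritic and endothelial markers were all higher in γδ replicate 7 than in replicate 6. B cell markers summed to 719.7 and 708 against 345 and 393 CPM, with 8 tested genes above and 7 below 0 in log2 fold change. Cd79a, picked after its values were seen, was at 0 in both γδ libraries and does not stand for the list. Of 15 B cell genes tested 0 were called by edgeR or DESeq2 and 1 was higher at an unadjusted p of 0.05 (5.4% of all tested genes were). Neutrophil and monocyte markers summed to 336 and 532 against 165 and 193 CPM, with 11 of 12 tested genes above 0 in log2 fold change. S100a8 and S100a9, picked after their values were seen, had 1 and 0 counts and 0 and 48 counts in γδ libraries. These 2 do not stand for the list, in which edgeR had 6 genes higher and 0 lower at an unadjusted p of 0.05. Over all tested genes 5.4% were higher and 5.51% lower at that p. Hepatocyte markers summed to 32.2 and 78 against 36.9 and 24.9 CPM, overlapping. The part of other cells in the differences between γδ and CD4+ T cells was not tested. Csf1r and Cd74 kept their calls in all 12 fits that left out 1 library, H2-Ab1 lost it without CD4+ replicate 3, Lyz2 without CD4+ replicate 2 or 3, and Mpeg1, H2-Aa and Dnase1l3 without either of these or γδ replicate 7.

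**Figure D4:**
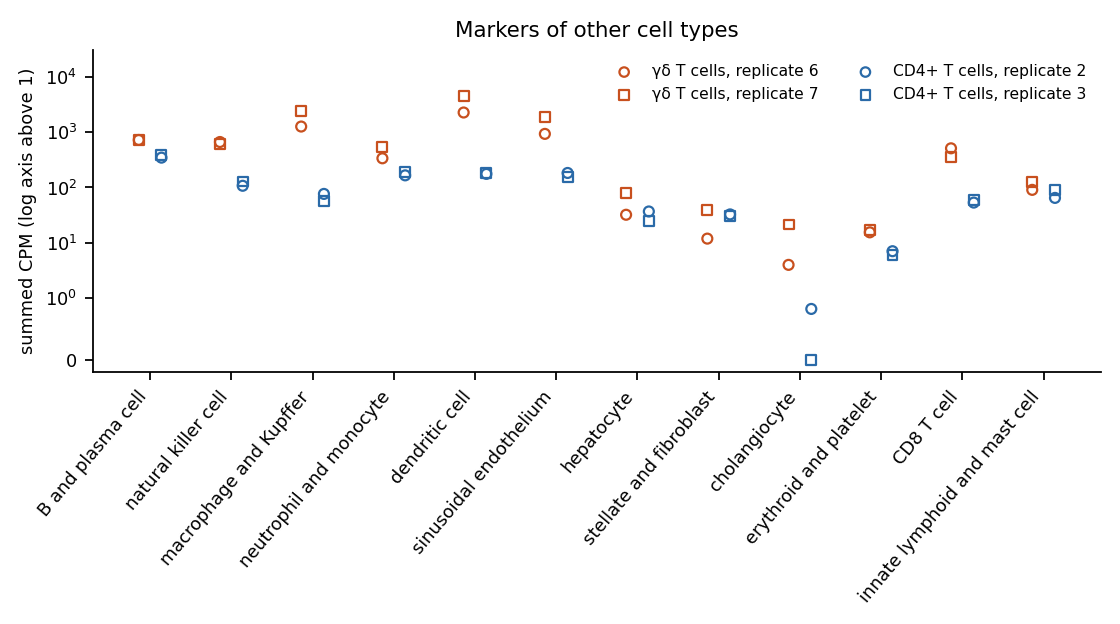
Summed CPM of 12 marker lists of other cell types in the 2 γδ libraries (orange) and the 2 CD4+ libraries (blue), on an axis that is logarithmic above 1 and linear below. The γδ libraries lie above the CD4+ libraries for macrophage, dendritic and endothelial lists, with replicate 7 above replicate 6, and overlap with them for hepatocyte markers.

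Further genes were among the 14 called higher with the largest change. Fn1, fibronectin, read 38 and 151 against 0.782 and 0.477 CPM, 149.8-fold higher, and Gpr35, a G protein-coupled receptor, 18.9 and 72.6 against 0.046 and 0.13 CPM, 519.6-fold higher (edgeR adjusted p = 0.00333 and 0.0188). Ptafr, the receptor of platelet-activating factor, read 7.94 and 66.7 against 0.092 and 0.0434 CPM, 543-fold (95% counting interval 186 to 2637) higher, with an edgeR adjusted p of 0.0169. Macrophage markers summed to 1256 and 2392 CPM in γδ and 76.5 and 56.1 CPM in CD4+ libraries. The part of macrophage RNA in the results of these 3 genes was not tested. Adgre4, an adhesion receptor of macrophages, read 43.3 and 51 against 0.046 and 0.0434 CPM and Plcg2, a phospholipase of B cell and myeloid receptors, 31.2 and 44.2 against 0.046 and 0.0434 CPM (edgeR adjusted p = 0.00956 and 0.00759). Their folds were 1054-fold (95% counting interval 291 to 8709.8) and 841-fold (95% counting interval 232 to 6949).

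The same group of 14 genes held Ace, Tns4, Kcnj2 and Fam78b. Ace, the angiotensin-converting enzyme, read 27.6 and 35 against 0.046 and 0 CPM, 1396-fold (95% counting interval 250.1 to 55182) higher. Tns4, a tensin of focal adhesions, read 62.3 and 81.1 against 0.138 and 0.0434 CPM, 790.2-fold higher, and Kcnj2, an inward-rectifier potassium channel, 46.7 and 27 against 0.046 and 0.0434 CPM, 833-fold (95% counting interval 230.2 to 6886) higher. Fam78b read 26.9 and 16.6 against 0.092 and 0.13 CPM, 196-fold higher. The edgeR adjusted p was 0.0282 for Ace, 0.00231 for Tns4, 0.0334 for Kcnj2 and 0.0469 for Fam78b. In single CD4+ libraries these 4 genes had between 0 and 3 counts. Tns4 lost its call without CD4+ replicate 3, Fn1, Adgre4 and Plcg2 without CD4+ replicate 2 or 3, Gpr35 and Ptafr without either of these or γδ replicate 7, and Ace, Kcnj2 and Fam78b without any of the 4 libraries compared.

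Of 26 tested transcripts of the mitochondrial genome, 9 were called higher in γδ T cells and 0 lower, 21 had groups that lay apart with γδ higher, and the median was 1.51. Over all tested genes 0.45% were called higher and 20.1% lay apart with γδ higher, and the median of the mitochondrial transcripts was 0.93 with library sizes alone as the scaling. mt-Rnr2, the large ribosomal RNA, read 350900.0 and 368344 against 199242 and 186588 CPM, 1.86-fold higher, and mt-Nd2, a subunit of complex I, 4187 and 6127 against 1233 and 1204 CPM, 4.23-fold higher (edgeR adjusted p = 0.000255 and 0.00119). The ribosomal RNA mt-Rnr1 read 241085 and 275886 against 128018 and 117279 CPM, 2.11-fold higher (edgeR adjusted p = 0.00114). mt-Nd1, mt-Nd5 and mt-Nd6 were called too, at 3.1-fold, 2.84-fold and 3.27-fold higher. Nuclear copies of mitochondrial genes could share such reads. Cytosolic ribosomal proteins had 0 of 83 genes called by edgeR, 7 higher and 0 lower at an unadjusted p of 0.05, 1 called by DESeq2 and a median of 0.35, which turned to -0.22 with library sizes alone. Over all genes the unadjusted shares were 5.4% higher and 5.51% lower, and the DESeq2 shares 3.88% higher and 3.91% lower. mt-Nd1 lost its call without CD4+ replicate 2, mt-Nd5 without CD4+ replicate 2 or γδ replicate 7, and mt-Nd6 without CD4+ replicate 2 or 3 or γδ replicate 7.

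Ccnl2 was also among the 14 lower genes with the largest change, while Malat1, Srsf2, Ddx5 and Hnrnph1, called lower as well, were chosen after their values were seen. Ccnl2, a cyclin of the splicing machinery, read 23.9 and 28.1 against 118 and 154 CPM, 5.24-fold lower (edgeR adjusted p = 0.0104). Malat1, a nuclear long noncoding RNA, read 3727 and 3514 against 7483 and 9706 CPM, and Srsf2, a splicing factor, 133 and 121 against 472 and 423 CPM (edgeR adjusted p = 0.00119 and 0.0166). The helicase Ddx5 read 371 and 392 against 1128 and 755 CPM and Hnrnph1, an RNA-binding protein, 107 and 106 against 319.9 and 272 CPM (edgeR adjusted p = 0.0198 and 0.0253). These differences were 2.37-fold, 3.51-fold, 2.47-fold and 2.78-fold, small beside those of receptor genes. Against CD4+ T cells of γδTCR-/- mice, a comparison that shares the γδ libraries, Srsf2 and Hnrnph1 gave edgeR adjusted p values of 0.283 and 0.299. Ddx5 lost its call without CD4+ replicate 2 or either γδ library, Ccnl2 and Srsf2 without any 1 of the 4 libraries compared, and Hnrnph1 without 7 of the 12 libraries.

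The same comparison on the MCD diet, made on 4 other wild-type libraries, called 239 genes higher (1.47%) and 191 lower (1.18%). Of the 106 genes called on the control diet, 104 had the same direction there, against 59.7% of all tested genes, and 75 were called there as well, 61 higher and 14 lower. Those 75 were 70.8% of the control-diet calls and 17.4% of the 430 MCD calls. Trdc read 623 and 538 CPM in γδ and 2.8 and 0.231 CPM in CD4+ MCD libraries, with log2 fold changes of 8.61 on the control and 8.58 on the MCD diet. Cd163l1 read 112 and 169 against 0.147 and 0.0462 CPM, with 10.40 and 10.43. Zeb2, Il18r1 and Cd74 had log2 fold changes of 4.70, 2.03 and 5.28 on the control and 4.78, 2.10 and 5.51 on the MCD diet. Both fits used the same estimate of spread.

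**Figure D5:**
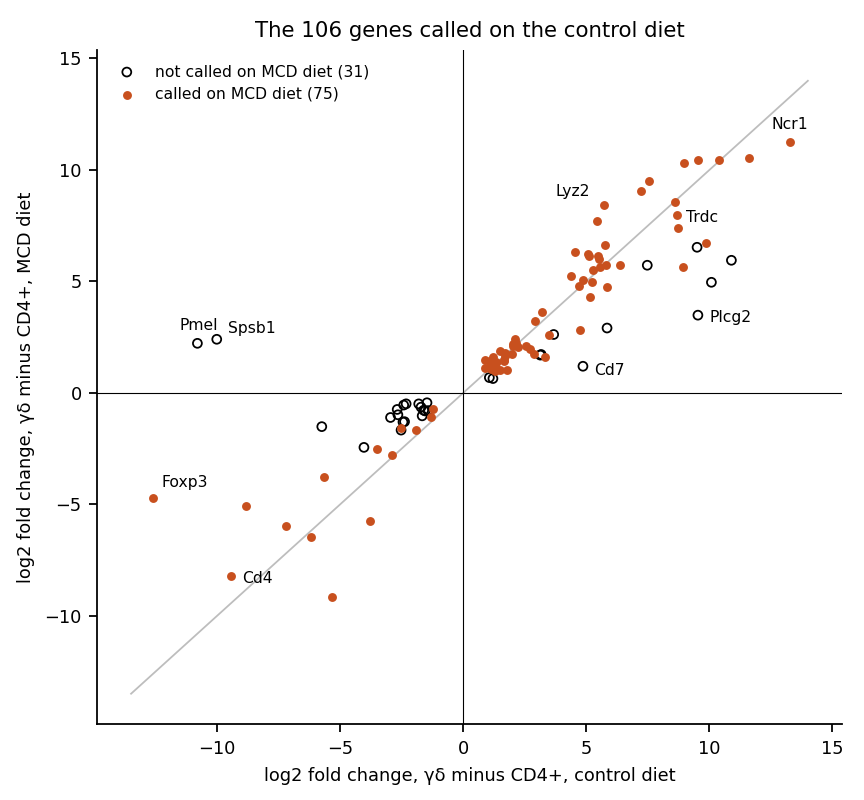
Log2 fold change of γδ minus CD4+ T cells on the control diet (x axis) and on the MCD diet (y axis) for the 106 genes called on the control diet, filled where the gene was called on both diets and open where it was not; the grey line marks equal values. All but Pmel and Spsb1 lie on the same side of 0 on both axes, and 75 of the 106 are filled.

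Whether a difference depended on diet was tested directly as an interaction. edgeR called 0 genes (0% of 16218; lowest adjusted p 0.132), with 1714 at an unadjusted p of 0.05, while DESeq2 called 854 and edgeR without a count filter 113. Without γδ MCD replicate 2 or 4 it called 37 or 455. The 106 control-diet calls included 26 with an unadjusted interaction p under 0.05, against 10.6% of all tested genes, a description only since the calls share libraries with the interaction. Plcg2 read 49.7 and 18 CPM in γδ and 1.33 and 4.71 CPM in CD4+ libraries on the MCD diet, with a log2 fold change of 3.48 there against 9.53 on the control diet. Cd7, a T and NK cell surface protein looked at after its values were seen, read 136 and 143 CPM in control and 5.86 and 8.2 CPM in MCD libraries of γδ T cells, where CD4+ libraries read 6.49 and 3.12 CPM on the control and 3.19 and 2.96 CPM on the MCD diet. Pmel and Spsb1 were the 2 genes with opposite directions. Spsb1, a ubiquitin ligase adaptor, had 0 counts in both γδ control libraries and read 6.77 and 9.07 CPM in γδ MCD libraries, against 6.76 and 6.37 CPM in control and 1.28 and 1.71 CPM in MCD libraries of CD4+ T cells. Pmel, which overlaps Dgka, read 0 and 0 CPM in γδ control and 7.26 and 52 CPM in γδ MCD libraries, against 14.9 and 7.8 CPM and 6.98 and 5.73 CPM in the corresponding CD4+ libraries.

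With CD4+ T cells of γδTCR-/- mice on the control diet as the reference, 143 genes were called higher (0.882%) and 42 lower (0.259%) in the same γδ libraries. Values are set side by side, since both comparisons share those libraries. Ccl5 had log2 fold changes of 3.31 against wild-type and 3.34 against knockout CD4+ T cells, and Ahnak 1.77 and 2.31. Tcrg-C1 moved from 3.50 to 7.19 (edgeR adjusted p = 0.184 and 0.00804). Klrk1 read 5.75 and 7.74 CPM in knockout and 31.6 and 53.1 CPM in wild-type CD4+ libraries, and its edgeR adjusted p was 0.00325 against knockout and 0.163 against wild-type cells. mt-Rnr2 read 320251 and 298387 CPM in knockout CD4+ libraries, with an edgeR adjusted p of 0.274 against γδ T cells, where wild-type CD4+ T cells gave 0.000255. The γ constant genes and Klrk1 thus lay further from γδ T cells, and the mitochondrial RNA closer to them, in the knockout CD4+ libraries.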

How the data were processed

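RNA of sorted T cells was sequenced on an Illumina instrument in 12 libraries. Per the submitters' processing notes, reads passed through bcl2fastq, STAR, featureCounts and DESeq2 with mm10 and GRCm38. Versions, filters and the strand setting are not given in the sources used here. The deposited table holds read counts and FPKM per gene symbol, and the deposited FPKM values follow DESeq2-type size factors, with deviations of at most 2e-04% over 1818 genes. The members are the libraries whose labels name γδ or CD4+ T cells, wild type and the control diet. The gene lists, the members and the tests were chosen with earlier results of these data known.

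Counts of 52459 genes were filtered (edgeR filterByExpr, at least 10 counts in a library of typical size and 15 in all), which left 16218. They were scaled by TMM and fitted over 12 libraries in 6 groups by edgeR 4.0.16 quasi-likelihood in R 4.3.3, with Benjamini-Hochberg adjustment at 0.05. The prior count was left at the package default, and the fit had 6 residual degrees of freedom. All groups were fitted so that they share 1 estimate of the spread. The standard error is the absolute log2 fold change divided by the square root of F. The fit was tested on simulated data. DESeq2 1.42.0, limma 3.58.1 on voom weights, limma on log2(FPKM + 1) and log2(FPKM + 0.1), other scalings, filters and library sets, and fits leaving out each library were alternatives. Annotation came from GENCODE on GRCm38, matched for 15624 tested genes. Sums and figures used Python 3.11.15, pandas 2.3.3, scipy 1.17.1 and matplotlib 3.10.9.

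Genes named were Trdc, Cd4, Trac, Cd3e and Cd8a. To these were added the 14 higher and 14 lower called genes of largest log2 fold change with non-overlapping groups and at least 20 CPM in the higher group, leaving out receptor segments, unnamed transcripts and pseudogenes. For each list up to 6 members were eligible, called genes first and then the most abundant. Genes outside this rule, Tcrg-C3 apart, were chosen after their values were seen: those so described in the text, and also Cd79a, S100a8, S100a9, Flt3, Xcr1, Siglech, Clec4f, Timd4 and Marco, shown as defining markers, and Lars2, Cybb, Gm14085, Pmel and Spsb1. Some genes of the lists are not reported here.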

Additional observations from a re-analysis of the deposited data

How the results depend on the processing

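The count of 106 genes that differed between γδ and CD4+ T cells was 1118 with DESeq2 and 244 with limma-voom, 354 without a count filter, 167 with only the 6 control-diet libraries, 275 without both γδ MCD libraries, 287 and 282 with limma on log2(FPKM + 1) and log2(FPKM + 0.1), and 185 with knockout CD4+ T cells as the reference. It stayed within 1.5 times in the other settings, at 103 with RLE scaling, 113 with library sizes alone, 99 without mitochondrial genes, 123 with a mean of at least 50 counts and 109 with only the 4 libraries compared. Leaving out 1 library gave 27 to 305 calls. The share of calls that were higher in γδ T cells was 68.9%, against 36.3% with library sizes alone, 80.7% with only the 4 libraries compared, and 49.8% both with DESeq2 and without both γδ MCD libraries. Of the 106 genes, 33 kept their call in each of these 13 settings that tested them (mt-Nd1 and mt-Nd2 were in 12, since 1 left out mitochondrial genes), 96 in at least 10, and 0 changed direction. The count of genes whose difference depended on diet was 0, with 854 by DESeq2, 113 without a count filter, and 0 to 455 when 1 library was left out. The cause of these changes was not tested.

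Calls higher and lower in γδ T cells numbered 73 and 33, against 557 and 561 with DESeq2, 174 and 70 with limma-voom, 251 and 103 without a filter, 114 and 53 with the 6 control-diet libraries, 137 and 138 without both γδ MCD libraries, 200 and 87 with limma on log2(FPKM + 1), 172 and 110 on log2(FPKM + 0.1), and 143 and 42 against knockout CD4+ T cells. Library sizes alone gave 41 and 72 and the 4 libraries compared 88 and 21. Leaving out 1 library gave 17 to 169 higher and 10 to 137 lower. No paired analysis was possible because the groups compared share no replicate numbers. With library sizes alone the medians of the lists of co-receptors, chemokine receptors and cytokine receptors turned to -0.53, -0.06 and -0.04. Those of interferon-induced genes, ribosomal proteins and cytokines turned to -0.47, -0.22 and -0.09. Medians of immediate early genes, glycolysis and sterol and lipid handling turned to -0.33, -0.13 and -0.32. With 2 libraries a group, a gene at under 3 counts per library (0.13 to 0.162 CPM) could not be told from absent.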

Other observations

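Several called genes outside the lists are described here, chosen after their values were seen. Lars2, the mitochondrial leucyl-tRNA synthetase, read 2508 and 2725 CPM in γδ against 431 and 377 CPM in CD4+ libraries, 6.47-fold higher in γδ T cells (edgeR adjusted p = 0.00167), and kept its call in all 12 fits that left out 1 library. Gm24187 and Gm23935, unnamed transcripts, were called higher too, at 1035 and 1532 against 217 and 224 CPM and 3269 and 3055 against 375 and 349 CPM. B2m, the light chain of MHC class I, read 5021 and 5886 CPM in γδ against 2241 and 2287 CPM in CD4+ libraries, 2.41-fold higher (edgeR adjusted p = 0.00333), and lost its call without CD4+ replicate 2 or 3 or γδ replicate 7. Cybb, a subunit of the phagocyte oxidase, read 204 and 455 CPM in γδ against 11.5 and 11 CPM in CD4+ libraries, 29.3-fold higher (edgeR adjusted p = 0.00119), and Itgam (CD11b), an integrin of myeloid and NK cells, 195 and 445 against 17.3 and 1.73 CPM, 33.7-fold higher (edgeR adjusted p = 0.0195). Itgam lost its call without CD4+ replicate 3 or γδ replicate 7. Cybb and Itgam stand beside macrophage marker sums of 1256 and 2392 CPM in γδ and 76.5 and 56.1 CPM in CD4+ libraries, and their part in these 2 results was not tested. Cd7, a surface protein of T and NK cells, read 136 and 143 CPM in γδ against 6.49 and 3.12 CPM in CD4+ libraries, 29.1-fold higher (edgeR adjusted p = 0.0334), and lost its call without any 1 of the 4 libraries compared or of the wild-type CD4+ MCD libraries.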
